A study of Mus musculus with 12 samples.

Results

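The untreated libraries of a mouse bone marrow macrophage series are described here: 4 of its 12 libraries, chosen by their treatment label alone. They give the transcriptome of untreated macrophages grown from bone marrow for 7 days in granulocyte-macrophage colony-stimulating factor (GM-CSF) at 50 ng/mL. Every group of the series shared that culture, and the other 8 libraries, from cells given PLG exposed to EACA, with or without RNases, for 24 h, are not used here. Strain, sex and age of the animals are not in the labels, nor whether the 4 libraries came from separate animals or cultures, so the spread between them may be partly technical. With 1 group there is no comparison between conditions and no test between groups: each gene is given by its level in replicates 1 to 4, in that order, and by its mean ± SD (n = 4).

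GM-CSF acts through a receptor made of an alpha chain of its own and a beta chain shared with other cytokines, and it keeps myeloid cells alive and makes them mature. In the lung it is needed for alveolar macrophages, which clear surfactant. Bone marrow grown in GM-CSF is known to give adherent macrophages together with cells that carry dendritic cell markers, and a bulk library measures all of them at once. In such a library, fewer cells of a type and less RNA per cell cannot be told apart.

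Levels are in FPKM, the authors' fragments per kilobase of gene scaled to each library's counted total, so that levels of different genes can be set side by side. Counted totals recovered from the FPKM steps were 21734671, 14780519, 20465366 and 16796232 reads in replicates 1 to 4. A gene was taken as expressed at a mean of at least 1 FPKM. Of the 32246 genes of the table, 10741 were expressed (33.3%), and of its 17707 protein-coding genes, 9676 (54.6%, the share to set beside the list counts given here), with 9413 at 1 FPKM or more in each of the 4 libraries. Another 1655 protein-coding genes had no read in any of the 4. The table lists a gene only if some library of the series had a value above 0, so genes outside it are not analysed here. Between pairs of libraries, Pearson's r of log2(FPKM + 0.5) over genes was 0.986 to 0.991, a description over genes that are not independent.

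A few genes carried a large part of the reads. The 20 protein-coding genes at 1000 FPKM or more took 8.99% of counted reads, and the 345 between 100 and 1000 took 22.6%. Outside the coding genes, Gm26917, a locus annotated as a long non-coding RNA at chr17:39843013-39846341 (deposited coordinates, on GRCm38.p6 per the submitters' processing notes), had the highest level of the table at 31943, 35828, 30897 and 34055 FPKM (33180 ± 2200.1), and it held 11.1% of the reads. Gm26917 was named after its value was seen. Its class is that of the annotation only, and which RNA its reads came from, in libraries of total RNA, was not tested. The small nuclear RNA Rn7sk, which restrains transcription elongation, followed at 8079.9, 7763, 8172 and 6886 FPKM (7725 ± 586). Mitochondrial genes held 0.755% ± 0.0553 of the reads.

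The 3 highest protein-coding genes were Lyz2, Psap and Cd74, ahead of mt-Co1, Ctss and Actb. Lyz2, the lysozyme of macrophages (chr10:117277331-117282321), was highest, at 4568, 4418, 4927 and 4739 FPKM (4663 ± 219). Psap, the precursor of the saposins that help to degrade sphingolipids in lysosomes, had 4188, 4178, 4357 and 4126 FPKM (4212 ± 100.2). Cd74, the invariant chain that guides MHC class II molecules, had 3667, 3761, 3644 and 3584 FPKM (3664 ± 73.3). For each of these, the gap between the highest and the lowest library was small against the mean. The neighbour of Lyz2 and its near copy, Lyz1 (chr10:117287797-117292868), had only 2.11, 1.61, 0.774 and 0.707 FPKM (1.3002 ± 0.679); how reads shared by the copies were counted is not given in the sources used here, so their split is uncertain. Lyz1 was chosen after its values were seen.

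Lgals3, a galectin of phagocytes, stood at 2336 ± 85.5 FPKM and Gpnmb, a lysosomal membrane glycoprotein, at 1581 ± 71.7 FPKM. The ferritin chains Ftl1 and Fth1, which store iron, stood at 1861 ± 31.98 FPKM and 1661 ± 104 FPKM. Cyba and Cybb, the membrane subunits of the phagocyte oxidase, stood at 1034 ± 17.8 FPKM and 541 ± 15.1 FPKM. Actb, the cytoplasmic actin, stood at 2536 ± 38.3 FPKM, between Ctss and Lgals3 in the order. Neighbours in this order often did not differ beyond their spread: the values of Ctss in 4 libraries and those of Actb overlapped, as did those of Lgals3 and Ccl17. All 40 of the highest protein-coding genes with a gene name lay at or above 539.7 FPKM, the level of Cst3, the last of them.

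**Figure D1:**
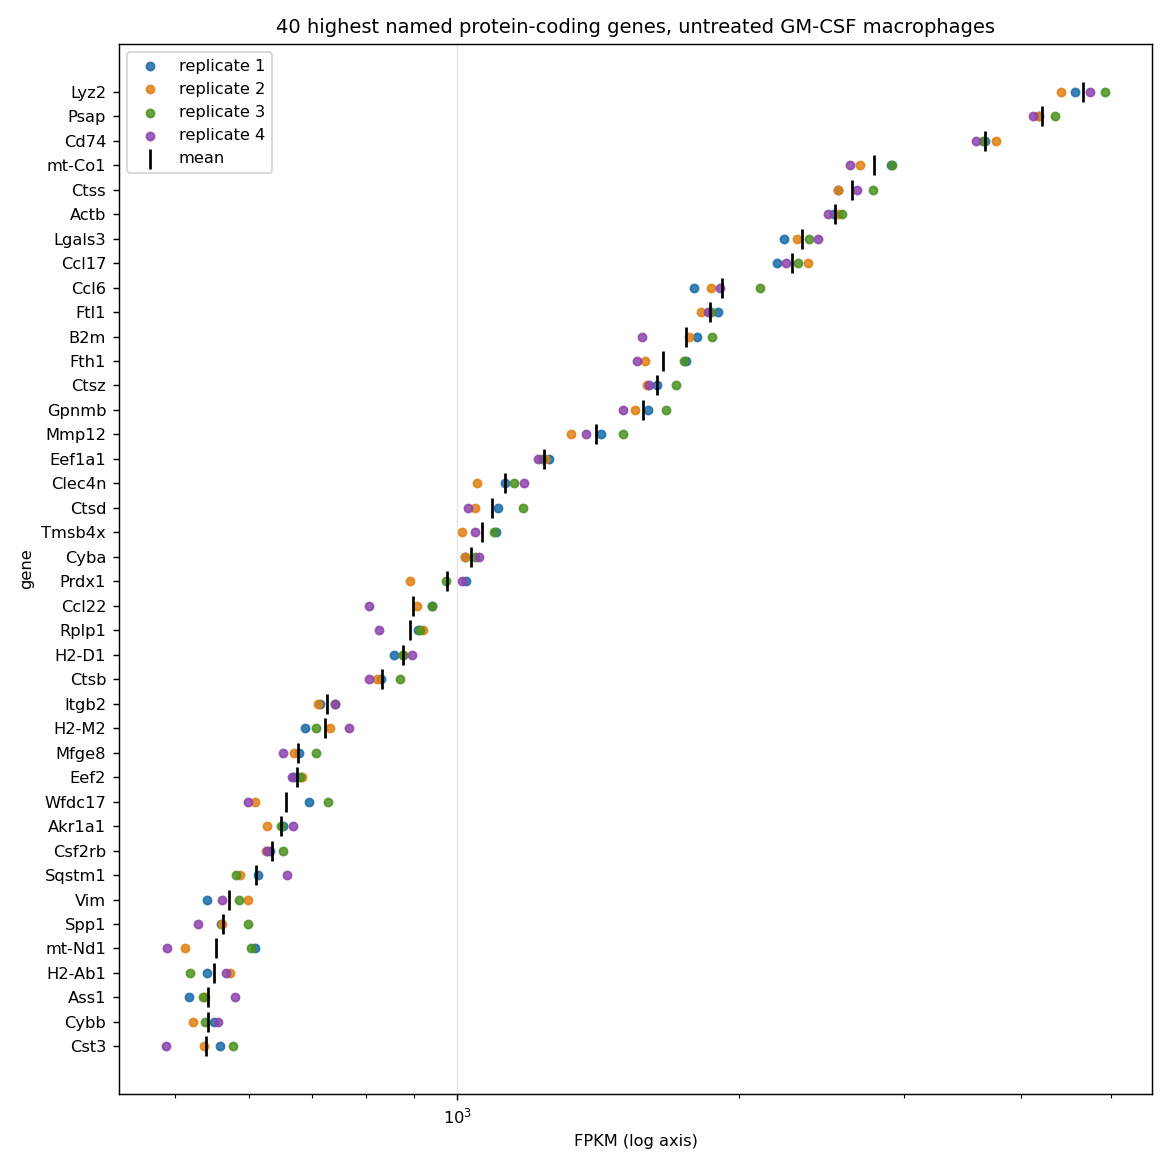
FPKM (log axis) of the 40 named protein-coding genes with the highest means; each point is 1 untreated library and the black tick is the mean of the 4. The points of a gene lie close together, from Lyz2 at 4663 FPKM to Cst3 at 539.7 FPKM.

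The receptors of the colony-stimulating factors were led by the GM-CSF receptor. Csf2rb, its shared beta chain, had 631, 625, 652 and 627 FPKM (634 ± 12.3). Csf2rb2, a near copy that serves interleukin 3 in mice, had 398, 403, 414 and 396 FPKM (403 ± 8.01), and reads of the pair may have been split between them. Csf2ra, the chain that gives the receptor its specificity, had 214, 229, 222 and 230.4 FPKM (224 ± 7.74). The receptor of macrophage colony-stimulating factor, Csf1r, lay between the beta chain and Csf2ra at 333, 316, 322 and 327 FPKM (324 ± 7.02), and its library values did not overlap with those of either. Il3ra, the interleukin 3 alpha chain, stood at 14.5 ± 0.373 FPKM, and Csf3r, the receptor of granulocyte colony-stimulating factor, at 9.39 ± 0.934 FPKM. Flt3, which marks dendritic cell precursors, was under the expression threshold in every library at 0.574, 0.362, 0.372 and 0.299 FPKM (0.402 ± 0.119). In all, 7 of the 11 receptors of this family in the table were expressed, 4 of them at 100 FPKM or more. Among the ligands, Csf1 stood at 34.5 ± 1.75 FPKM and Csf3 at 5.33 ± 0.654 FPKM, while Csf2, which encodes GM-CSF itself, had 0.633, 0.169, 0.183 and 0.521 FPKM (0.377 ± 0.236).

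Of 16 members of the Toll-like receptor list, which sense microbial products, 12 were expressed. Cd14, a co-receptor for lipopolysaccharide, had 154, 136, 144 and 137 FPKM (143 ± 8.61). Unc93b1, which carries the nucleic acid sensing members to endosomes, had 132, 124, 126 and 126 FPKM (127 ± 3.44). Tlr2, for bacterial lipoproteins, had 113, 107, 108 and 110.1 FPKM (109.7 ± 2.85). These 3 were the only members at 100 FPKM or more. Of the endosomal members, Tlr13 (bacterial ribosomal RNA) stood at 27.5 ± 1.64 FPKM, Tlr7 (single-stranded RNA) at 20.3 ± 1.88 FPKM and Tlr9 (unmethylated DNA) at 3.93 ± 0.194 FPKM. Tlr3, for double-stranded RNA, crossed the threshold in 1 library only, at 0.91, 1.14, 0.732 and 0.835 FPKM (0.905 ± 0.175). Tlr4, the lipopolysaccharide receptor, stood at 18.1 ± 0.693 FPKM, and Tlr5, for flagellin, at 0.038 FPKM. In the cytosol, 14 of 18 sensors were expressed, led by Nlrp3, the inflammasome sensor, at 35.1 ± 1.79 FPKM.

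C-type lectins bind sugars, many of them fungal, and 18 of 24 were expressed. Clec4n (dectin 2) had 1125, 1050, 1151 and 1179.9 FPKM (1126 ± 55.7), above every other receptor listed. Clec7a (dectin 1), which the deposited annotation classes as a polymorphic pseudogene, had 278, 272, 294 and 291 FPKM (284 ± 10.2). Mincle, Clec4e, had 127, 114, 105 and 112 FPKM (114 ± 9.15). The mannose receptor Mrc1 was far lower, at 13.7 ± 1.31 FPKM, and Cd209a (DC-SIGN) at 0.165 FPKM did not reach the threshold. Signalling adaptors of myeloid receptors were abundant: Tyrobp (DAP12) stood at 471 ± 19.9 FPKM and Fcer1g, the common Fc receptor gamma chain, at 311 ± 20.4 FPKM. Of the Fc receptors for IgG, Fcgr3 stood at 257 ± 18.5 FPKM, Fcgr2b at 37.5 ± 3.93 FPKM, Fcgr1 at 9.28 ± 0.172 FPKM and Fcgr4 at 1.54 ± 0.417 FPKM. The list of Fc receptors had 6 of 9 members expressed.

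Scavenger and dead-cell receptors had 14 of 19 members expressed. Cd36, which takes up oxidised lipoproteins, had 362, 308, 345 and 331 FPKM (336 ± 22.7). Axl, a kinase that recognises dying cells through a bridging protein, had 158, 174, 159 and 169 FPKM (165 ± 7.75). Its relative Mertk, the form of many resident macrophages, had 5.77, 6.58, 6.34 and 5.19 FPKM (5.97 ± 0.624), so the pair did not overlap in any library. Cd163, the haemoglobin receptor, stood at 0.214 FPKM, and Timd4 had a single read, in replicate 2. Chemoattractant receptors had 13 of 29 members expressed. Fpr2, for formylated peptides, stood at 91.6 ± 6.19 FPKM. Ccr7, which takes dendritic cells to lymph nodes, had 93.9, 71.4, 89.2 and 59.6 FPKM (78.5 ± 15.9), with replicates 1 and 3 above the other 2. Ccr2, the monocyte receptor, stood under the threshold in every library, at 0.361, 0.5, 0.629 and 0.388 FPKM (0.469 ± 0.122).

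Integrins were led by the beta chain of leukocytes, Itgb2, at 726 ± 16.96 FPKM, and by its partner Itgax (CD11c), at 495, 509, 522 and 501 FPKM (507 ± 11.8). The other partner, Itgam (CD11b), had 32.3, 29.5, 34.5 and 31.6 FPKM (31.96 ± 2.095), lower than Itgax in each library. Of 25 integrin genes, 11 were expressed. Cytokine receptors had 29 of 36 members expressed, with Tnfrsf1b, a receptor of tumour necrosis factor, highest at 350.5 ± 6.48 FPKM. Il4ra, which serves interleukins 4 and 13, stood at 59.4 ± 1.57 FPKM and Il10ra at 33.04 ± 1.03 FPKM.

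**Figure D2:**
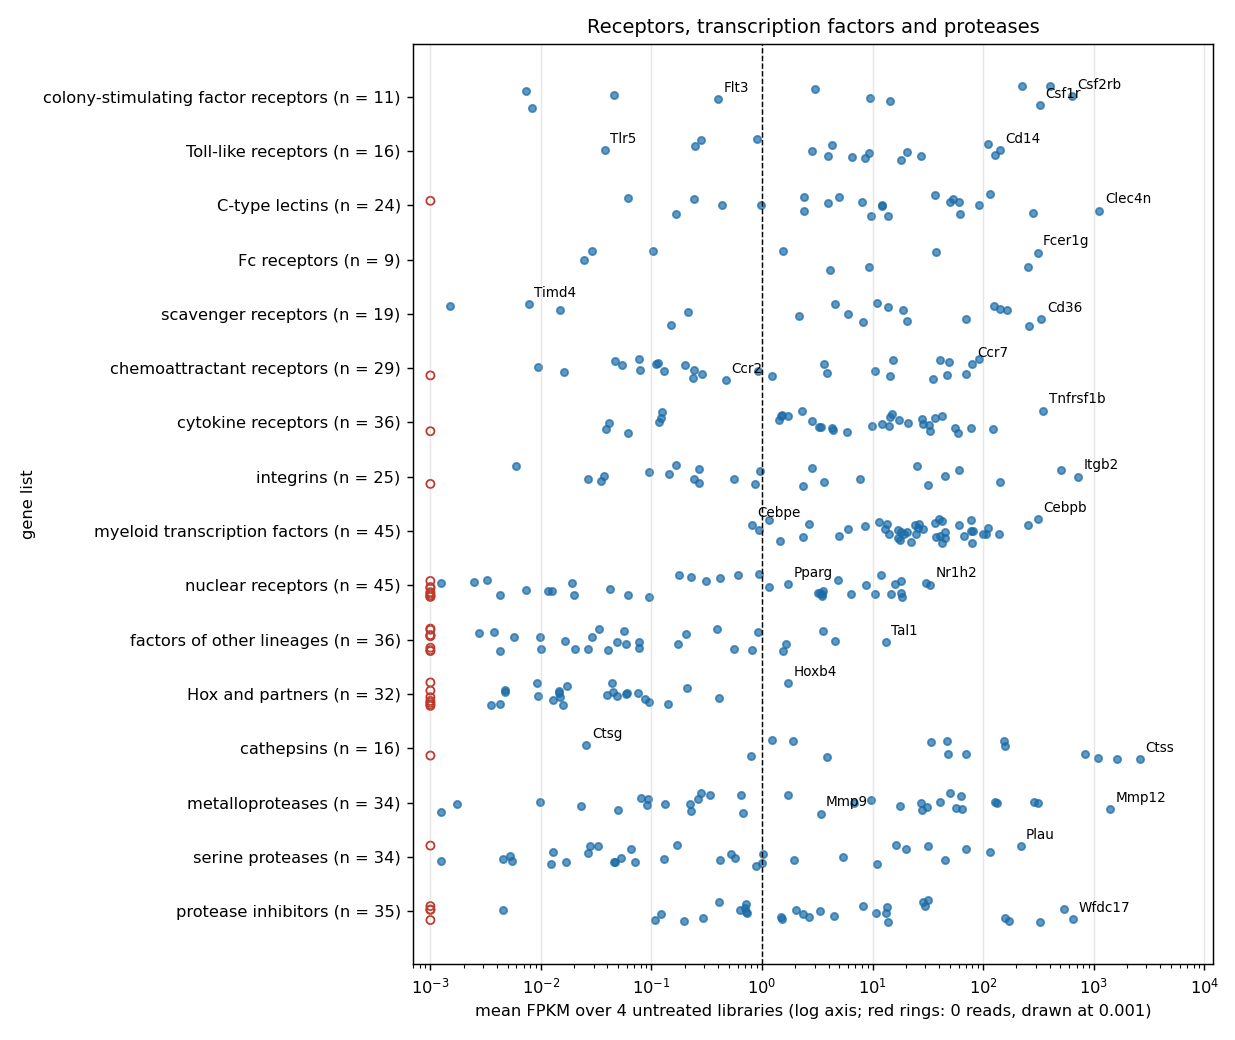
Mean FPKM over the 4 untreated libraries (log axis) of each member of 16 lists of receptors, transcription factors and proteases; the dashed line is at 1 FPKM and red rings are genes with 0 reads, drawn at 0.001. Myeloid transcription factors lie almost wholly right of the line (43 of 45), and Hox genes and their partners left of it (1 of 32).

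Of 45 transcription factors known from myeloid cells, 43 were expressed, or 27 when genes that overlap another expressed gene are left out. Cebpb, a factor of inflammatory and maturing macrophages, was highest at 319, 287, 325 and 328 FPKM (315 ± 18.8). Atf3, a stress-induced repressor, had 244, 257, 259 and 256 FPKM (254 ± 6.87). Spi1 (PU.1), which specifies the myeloid line, had 129, 140.1, 136 and 147 FPKM (138 ± 7.45). The levels of these factors varied little between libraries, with a median CV (SD as a percent of the mean) of 3.54% over those expressed. The interferon regulatory factors Irf5, Irf4 and Irf8 stood at 112 ± 2.63 FPKM, 42.2 ± 2.68 FPKM and 41.1 ± 3.05 FPKM. Stat5a and Stat5b, which are activated by the GM-CSF receptor, stood at 39.5 ± 1.56 FPKM and 28.8 ± 0.475 FPKM. Batf3, a dendritic cell factor, stood at 37.1 ± 2.49 FPKM and Bhlhe41, one known from alveolar macrophages, at 37.3 ± 0.984 FPKM. Maf, which marks many resident macrophages, was among the lowest expressed members, at 1.46, 1.42, 1.62 and 1.31 FPKM (1.45 ± 0.129). Spic and Cebpe, at 0.933 FPKM and 0.81 FPKM, did not reach the threshold.

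Of 45 nuclear receptors, 19 were expressed and none stood at 100 FPKM. Nr1h2, a liver X receptor that senses oxysterols, had 33.6, 33.6, 33.5 and 32.8 FPKM (33.4 ± 0.382). Its partner gene Nr1h3 had 4.41, 4.76, 5.44 and 4.88 FPKM (4.87 ± 0.428). Pparg, a fatty acid sensor through which GM-CSF is known to act in alveolar macrophages, had 1.51, 1.93, 1.69 and 1.79 FPKM (1.73 ± 0.175), low in every library. Factors of other lineages had 5 of 36 members expressed, the highest being Tal1 at 13.2 ± 1.22 FPKM and Gata2 at 4.53 ± 0.243 FPKM, both known from blood progenitors and mast cells. In the Hox list, Hoxb4 at 1.73 ± 0.191 FPKM was the single expressed member. Gata6, the factor of peritoneal macrophages, had no read, where 3 reads over the 4 libraries would be 0.0062 FPKM.

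Cathepsins, the proteases of the lysosome, had 13 of 16 members expressed and a summed level of 6716 ± 259 FPKM. Ctss, which trims the invariant chain, had 2551, 2555, 2783 and 2675 FPKM (2641 ± 111). Ctsz had 1636, 1595, 1711 and 1602 FPKM (1636 ± 53.4), Ctsd had 1106, 1045, 1177 and 1027 FPKM (1089 ± 67.9) and Ctsb had 829, 821, 868 and 806 FPKM (831 ± 26.8). Replicate 3 was highest for all 4 of these, and for 11 of the 13 expressed cathepsins, against 30.0% of all expressed protein-coding genes. Ctsk, the collagen-degrading form of osteoclasts and alveolar macrophages, stood at 48.3 ± 4.01 FPKM. Ctsg, a neutrophil granule protease, had 2 reads in all.

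Metalloproteases had 18 of 34 members expressed. Mmp12, the macrophage elastase, had 1424, 1322, 1505 and 1372 FPKM (1406 ± 78.2) and took 1.02% of counted reads. Mmp8, a collagenase best known from neutrophils, had 338, 269.6, 354 and 291 FPKM (313 ± 39.6). Mmp14, which sits in the membrane and activates others, had 130, 133, 132 and 138 FPKM (133 ± 3.43). The collagenase Mmp13 stood at 64.2 ± 6.799 FPKM and the gelatinases Mmp2 and Mmp9 at 57.2 ± 4.03 FPKM and 3.39 ± 0.628 FPKM. The base sequence before the start of Mmp12 is shown because Mmp12 was the highest member of the metalloprotease list. It is the window chr9:7344197-7344380 (GRCm38.p6, plus strand, RefSeq), 5′ to 3′, with letters that match the PU.1-like GAGGAAGT on the opposite strand in capitals.
Mmp12: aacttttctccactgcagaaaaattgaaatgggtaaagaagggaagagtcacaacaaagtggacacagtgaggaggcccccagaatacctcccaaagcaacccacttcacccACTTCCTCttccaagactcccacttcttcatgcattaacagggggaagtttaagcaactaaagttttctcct
Of all 32851 RefSeq windows of 250 bases before a start, 2.44% held GAGGAAGT on either strand. Those windows belong to 27025 gene symbols, so some genes count more than once. The stretches printed here and below are shorter, at most 200 bases, so such shares are not rates for stretches of that length. A match is a description of letters, not of binding. Here and below, bases inside the deposited gene model were left out.

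Serine proteases had 11 of 34 members expressed. Plau, the urokinase that activates plasminogen, had 209.6, 215, 234 and 215 FPKM (218 ± 10.6). Its receptor Plaur had 171, 180, 186 and 194 FPKM (183 ± 9.804). Plg, which encodes plasminogen, had no read, where 3 reads over the libraries would be 0.01096 FPKM, and Plat, the tissue-type activator, had 0.081, 0.022, 0.047 and 0.038 FPKM (0.047 ± 0.0249). The coagulation factors F10 and F7 had 118, 112, 114 and 115 FPKM (115 ± 2.43) and 72.5, 69.3, 71.2 and 66.3 FPKM (69.8 ± 2.68), with no overlap between the genes. Among the inhibitors, 20 of 35 were expressed. Wfdc17 stood at 657 ± 63.9 FPKM, the cystatins Cst3 and Cstb at 539.7 ± 37.7 FPKM and 327 ± 9.29 FPKM, and Serpinb2, which inhibits urokinase, at 177, 141, 168 and 147 FPKM (158 ± 17.2).

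All 11 genes of MHC class II presentation were expressed (7 when genes that overlap another expressed gene are left out), with a summed level of 5197 ± 114 FPKM, most of it from Cd74 at 3664 ± 73.3 FPKM. H2-Ab1, H2-Eb1 and H2-Aa, which encode chains of peptide-binding molecules, had 541, 572, 518 and 567 FPKM (549 ± 24.7), 512, 562, 505 and 538 FPKM (529 ± 26.02) and 313, 325, 316 and 323 FPKM (319 ± 5.65). Ciita, the factor that switches these genes on, had 12.3, 12.7, 11.4 and 11.1 FPKM (11.9 ± 0.778). H2-DMa and H2-DMb1, which load peptides, stood at 30.1 ± 2.29 FPKM and 75.7 ± 8.83 FPKM. B2m, the light chain of MHC class I, had 1803, 1771, 1873 and 1576 FPKM (1755 ± 127), lowest in replicate 4. H2-D1, a class I heavy chain of a family of near-identical genes, stood at 875 ± 15.997 FPKM, and reads may have been split within that family. Below are the sequences before the starts of B2m (chr2:122147487-122147685, plus strand), H2-Aa (chr17:34287824-34288023, minus strand) and H2-Eb1 (chr17:34305667-34305866, plus strand) on GRCm38.p6 from RefSeq, shown as examples of a class I chain and a class II alpha and beta chain. Capitals mark CCAAT (33.8% of windows), and in B2m also TATAAA (12.4%), an interferon-response-like motif, GAAA, any 2 bases and GAAA (2.98%), and a kappa B-like motif, GGGA, any base and TTTCC (0.356%), all on either strand.
B2m: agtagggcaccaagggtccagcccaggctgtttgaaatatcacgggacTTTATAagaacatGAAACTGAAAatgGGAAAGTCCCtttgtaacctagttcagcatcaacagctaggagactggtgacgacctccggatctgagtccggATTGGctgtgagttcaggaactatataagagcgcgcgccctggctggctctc
H2-Aa: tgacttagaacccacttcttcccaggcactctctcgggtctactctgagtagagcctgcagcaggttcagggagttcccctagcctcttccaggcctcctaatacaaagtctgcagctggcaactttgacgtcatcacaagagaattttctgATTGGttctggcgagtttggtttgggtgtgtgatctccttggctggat
H2-Eb1: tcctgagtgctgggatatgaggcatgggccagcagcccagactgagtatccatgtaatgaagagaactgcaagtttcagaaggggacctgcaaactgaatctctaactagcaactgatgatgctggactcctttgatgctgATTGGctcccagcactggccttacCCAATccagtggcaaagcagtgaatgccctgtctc
H2-Aa held CCAAT once, in bases -48 to -44 before the start on the opposite strand. H2-Eb1 held it at -35 to -31 on the strand shown and at -59 to -55 on the other, and B2m at -53 to -49 on the other. The TATAAA letters marked in B2m lay at -152 to -147, on the opposite strand.

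Of 53 chemokines and cytokines, 33 were expressed in these untreated cells (62.3%, against 54.6% of all protein-coding genes), and 14 stood at 100 FPKM or more, a level reached by 2.06% of protein-coding genes. Ccl17 and Ccl22, both ligands of Ccr4, had 2196, 2368, 2311 and 2245 FPKM (2280 ± 75.3) and 940.4, 905, 939.9 and 805 FPKM (898 ± 63.7). Ccl6, a chemokine of mouse myeloid cells, had 1791, 1867, 2106 and 1907 FPKM (1918 ± 134). The inflammatory Il1b had 303, 282, 303 and 301 FPKM (297 ± 10.2) and Tnf had 148, 159.9, 148 and 205 FPKM (165 ± 27.3), the latter highest in replicate 4. Cxcl3, a neutrophil attractant, had 279.8, 243, 255 and 293 FPKM (268 ± 22.7). By contrast, Il10, the anti-inflammatory cytokine, was far under the threshold at 0.176, 0.052, 0.075 and 0.182 FPKM (0.121 ± 0.0674), from 12 reads in all. Cxcl10 stood at 10.3 ± 1.12 FPKM, Il6 at 17.4 ± 2.91 FPKM and Il12b at 18.1 ± 3.07 FPKM. Spp1 (osteopontin) stood at 562 ± 28.3 FPKM.

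The sequences before the starts of Il1b (chr2:129371140-129371339, minus strand), Tnf (chr17:35202008-35202207, minus strand) and Cxcl3 (chr5:90785901-90786100, plus strand) are shown as examples of the 14 at 100 FPKM or more (GRCm38.p6, RefSeq). Capitals mark TATAAA, the E-box CACGTG (6.02% of all windows) and the same kappa B-like motif.
Il1b: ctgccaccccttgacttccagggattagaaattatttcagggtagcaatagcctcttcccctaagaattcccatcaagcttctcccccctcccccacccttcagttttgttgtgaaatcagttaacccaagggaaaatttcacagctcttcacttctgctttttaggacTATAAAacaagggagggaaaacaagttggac
Tnf: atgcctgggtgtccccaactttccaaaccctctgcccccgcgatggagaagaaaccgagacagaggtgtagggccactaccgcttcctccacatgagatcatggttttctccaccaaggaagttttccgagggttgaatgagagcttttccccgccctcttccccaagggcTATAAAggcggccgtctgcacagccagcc
Cxcl3: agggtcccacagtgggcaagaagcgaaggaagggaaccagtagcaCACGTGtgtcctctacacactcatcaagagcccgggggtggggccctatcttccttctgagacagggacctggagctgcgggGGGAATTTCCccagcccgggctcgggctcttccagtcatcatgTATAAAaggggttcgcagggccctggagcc
TATAAA ended at base -26, -24 and -25 in Il1b, Tnf and Cxcl3. The kappa B-like letters lay at -73 to -64 in Cxcl3. No letters of that form were in the printed bases of Il1b and Tnf, which says only that they are not in this window.

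All 15 macrophage markers were expressed. The list was chosen with earlier results known, and the count cannot tell macrophages from other myeloid cells, so it is no check of the label. Adgre1 (F4/80) had 195, 161, 201 and 155 FPKM (178 ± 23.1) and Cd68 had 280.4, 247, 288 and 235 FPKM (263 ± 25.4), both higher in replicates 1 and 3 than in 2 and 4. Replicates 1 and 3 also had the most counted reads, and a link between the 2 was not tested. Fcgr1 (CD64) stood at 9.28 ± 0.172 FPKM. Dendritic cell markers were also present, 13 of 18. Fscn1, an actin bundler of mature dendritic cells, stood at 124 ± 15.8 FPKM and Zbtb46, a factor of classical dendritic cells, at 3.58, 3.51, 3.49 and 3.303 FPKM (3.47 ± 0.118). Kit and Clec9a stood at 3.04 ± 0.421 FPKM and 4.97 ± 0.597 FPKM, while Xcr1, of the cross-presenting type, stood at 0.1095 FPKM and Siglech, of plasmacytoid cells, had 3 reads in all. Complement genes had 7 of 19 members expressed, with C3 at 328 ± 21.98 FPKM, Cfp (properdin) at 239 ± 7.51 FPKM and C1qb at 62.03 ± 7.82 FPKM.

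Alveolar macrophage markers were expressed in part, 15 of 20. Lpl, the lipoprotein lipase, stood at 269.8 ± 5.18 FPKM and Plet1 at 143 ± 12.5 FPKM. Chil3 (Ym1) had 165, 123, 123 and 81.03 FPKM (123 ± 34.1), highest in replicate 1 and lowest in replicate 4. Car4 stood at 21.04 ± 3.83 FPKM, Marco, a scavenger receptor, at 13.9 ± 2.89 FPKM and Siglecf at 5.87, 7.15, 6.39 and 7.38 FPKM (6.7 ± 0.696). Fabp4, a lipid carrier of alveolar macrophages, was under the threshold at 0.533, 0.271, 0.337 and 0.517 FPKM (0.414 ± 0.131), whereas Fabp5 stood at 56.9 ± 3.7005 FPKM. Markers of other tissue macrophages had 6 of 21 members expressed, 10 at a threshold of 0.5 FPKM and 12 on the TPM scale. On that scale every library sums to the same total, well above its FPKM sum, so the same threshold is a lower bar. Hmox1, which degrades haem, stood at 450.1 ± 44.7 FPKM, but it is expressed by many macrophages. Vsig4, a complement receptor of Kupffer cells, had no read, where 3 would be 0.0274 FPKM. Lyve1 had 2 reads in all, and Tmem119, of microglia, stood at 0.749 FPKM.

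Genes of activation states stood at very different levels. Acod1, which makes itaconate, had 565, 509.7, 509.9 and 542 FPKM (532 ± 26.96) and Nos2, the inducible nitric oxide synthase, had 25.4, 25.1, 25.2 and 21.6 FPKM (24.3 ± 1.84). Of 17 genes in the list of activation states, which holds Acod1 beside genes of alternative activation, 12 were expressed. In that list 4 stood at 100 FPKM or more, and the summed level was 4039 ± 110.0 FPKM, led by Ccl17. Arg1, the arginase of alternative activation, was under the threshold at 0.351, 0.03, 0.417 and 0.053 FPKM (0.213 ± 0.1998), with 17 and 19 of its 39 reads in replicates 1 and 3. Retnla, another gene of that state, had no read, where 3 would be 0.0679 FPKM. Mgl2, a lectin of the same state, was expressed at 53.7 ± 2.23 FPKM. Lipid-handling genes had 19 of 21 members expressed, though Apoe, the lipoprotein of many macrophages, stood at only 3.29, 2.98, 3.45 and 3.29 FPKM (3.25 ± 0.199). Of 13 osteoclast genes 11 were expressed, with Dcstamp, needed for cell fusion, at 88.6 ± 5.105 FPKM and Acp5 at 35.6 ± 4.72 FPKM.

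**Figure D3:**
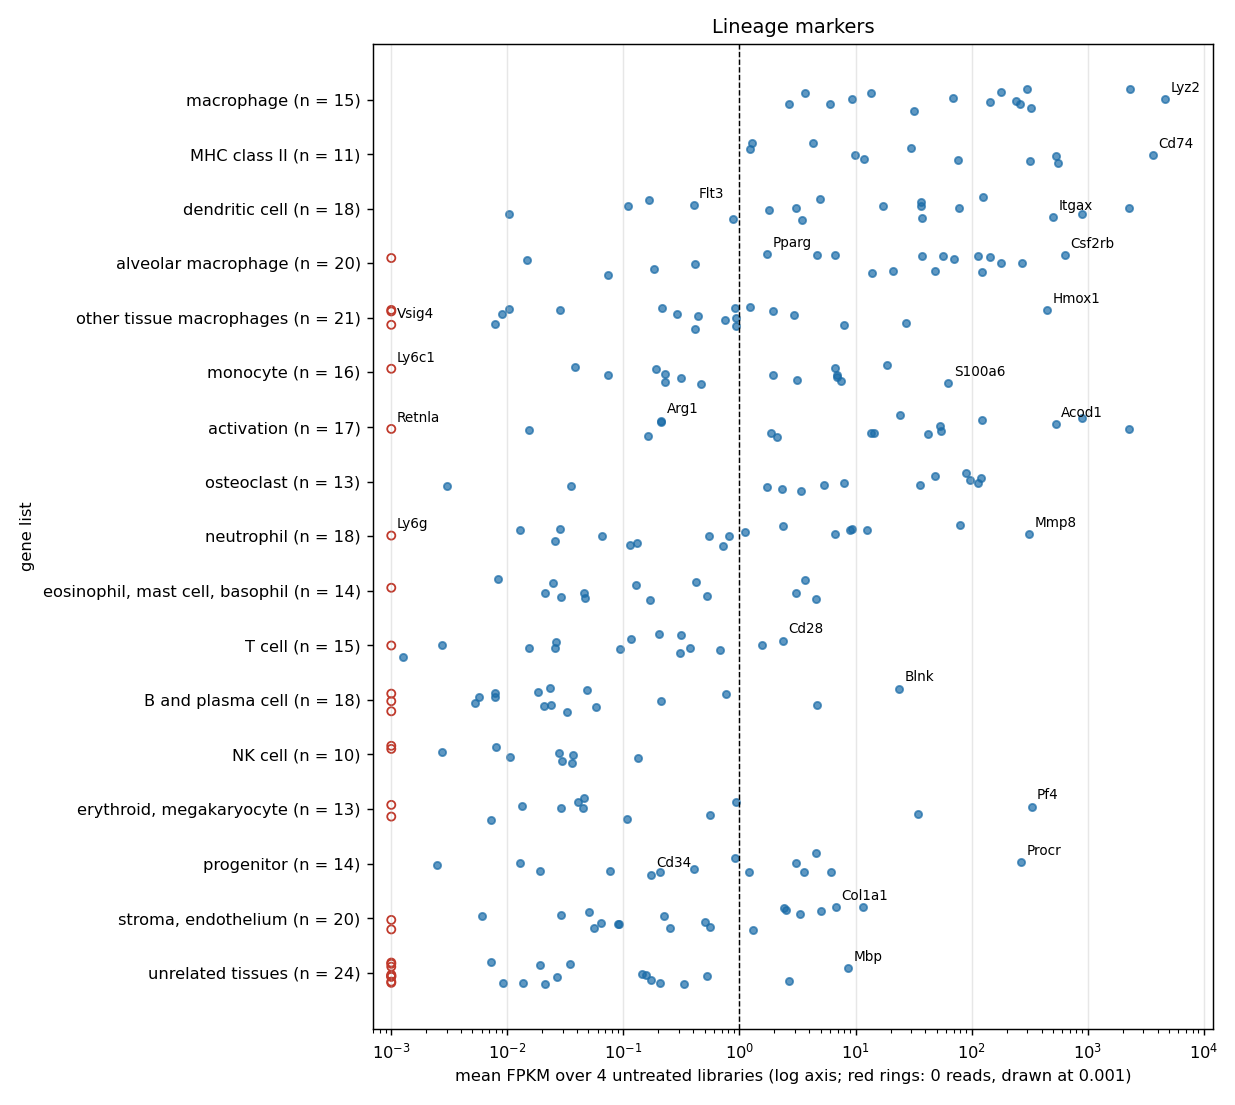
Mean FPKM over the 4 untreated libraries (log axis) of lineage marker genes, 1 row per list; the dashed line is at 1 FPKM and red rings are genes with 0 reads, drawn at 0.001. Macrophage and MHC class II genes all lie right of the line (15 of 15 and 11 of 11), and NK cell genes all left of it (0 of 10).

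Few markers of other blood cells reached the threshold. T cell genes had 2 of 15 members expressed (6 on the TPM scale), Cd28 at 2.35 ± 0.235 FPKM and Tcf7 at 1.56 ± 0.496 FPKM, while Cd3e, part of the T cell receptor complex, had 1 read in all. Among B and plasma cell genes, 2 of 18 were expressed, Blnk, an adaptor that macrophages also use, at 23.9 ± 1.33 FPKM and Cd22 at 4.67 ± 0.399 FPKM. None of 10 NK cell genes was expressed, Klrk1 being highest at 0.133 FPKM. Of 13 erythroid and megakaryocyte genes, only the chemokines Pf4, at 387, 247, 362 and 319 FPKM (329 ± 61.02), and Ppbp, at 34.2 ± 7.67 FPKM, were expressed. Progenitor genes had 6 of 14 members expressed. Procr, the receptor of activated protein C, stood at 265 ± 13.8 FPKM, while Cd34 stood at 0.172 ± 0.0471 FPKM. In the eosinophil, mast cell and basophil list, 3 of 14 were expressed, Gata2, Kit and Ear6, the last at 3.66 ± 0.509 FPKM. Of 24 genes of unrelated tissues, Mbp at 8.61 ± 0.632 FPKM and Cdh1 at 2.65 ± 0.324 FPKM were expressed and 9 had no read.

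The cells held mRNA of the division cycle: all 20 genes of that list were expressed, with Mki67, a marker of cycling cells, at 19.5, 18.9, 15.5 and 19.996 FPKM (18.5 ± 2.02) and Pcna, the replication clamp, at 42.3, 42.9, 44.95 and 43.8 FPKM (43.5 ± 1.15). Transcripts of the Y chromosome were present in all 4 libraries, Ddx3y at 12.7 ± 0.884 FPKM, while Xist had 3 reads in all. Of 13 mitochondrial mRNAs 11 were expressed, unevenly: mt-Co1 stood at 2785 ± 147 FPKM and mt-Co2, another cytochrome oxidase subunit, at 7.39 ± 0.928 FPKM. Nuclear copies of mitochondrial genes exist, and how shared reads were counted is not given, so these levels are uncertain.

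Most genes varied little between the libraries. Over the 5874 named protein-coding genes of mean 5 FPKM or more, the median CV was 4.22%, against 2.96% from counting alone, and 5505 had a CV under 10%. The 10 genes with the lowest CV included Svil, an actin-binding protein, at 8.56, 8.53, 8.53 and 8.52 FPKM (8.54 ± 0.01603), and Psmd4, a proteasome subunit, at 30.3, 30.2, 30.3 and 30.1 FPKM (30.2 ± 0.0982). Their CVs of 0.188% and 0.325% lay under their counting errors of 2.47% and 2.56%. At the other end, 19 genes had a CV above 25%. Ngp and S100a9, proteins of neutrophil granules and cytosol, had 12.8, 9.63, 1.64 and 2.83 FPKM (6.72 ± 5.35) and 23.8, 17.9, 4.12 and 4.22 FPKM (12.5 ± 9.92). S100a8, the partner of S100a9, had 14.5, 10.04, 6.27 and 4.89 FPKM (8.91 ± 4.29). For all 3, replicates 1 and 2 were above 3 and 4. The next was Col1a1, a chain of type I collagen, at 7.22, 4.64, 4.38 and 10.9 FPKM (6.79 ± 3.04), highest in replicate 4. Acta2, the actin of smooth muscle and myofibroblasts, had 5.699, 3.57, 3.69 and 7.37 FPKM (5.09 ± 1.81). Fn1 (fibronectin) and Thbs1 (thrombospondin) had 10.9, 4.53, 7.75 and 6.79 FPKM (7.49 ± 2.63) and 51.8, 24.03, 43.9 and 30.3 FPKM (37.5 ± 12.6), both highest in replicate 1 and lowest in replicate 2.

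**Figure D4:**
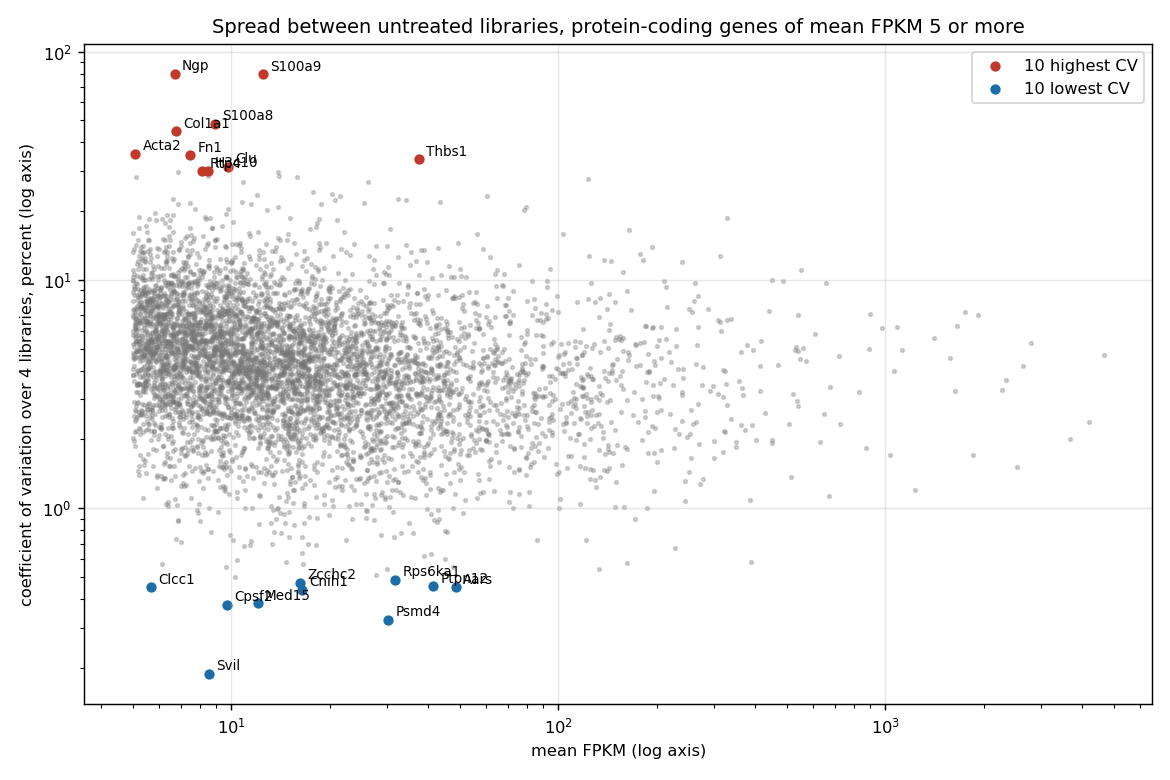
Coefficient of variation over the 4 untreated libraries against mean FPKM (both log axes), 1 point per named protein-coding gene of mean 5 FPKM or more; red and blue mark the 10 genes of highest and lowest CV. Ngp and S100a9 stand highest, at 79.7% and 79.4%.

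Neutrophil markers bear on those libraries. Of 18, 8 were expressed, and 6 of the 8 were highest in replicate 1 (27.0% of all expressed protein-coding genes were). The other 2, Mmp8 and Lcn2, were highest in replicate 3. Mmp8 held most of the level of the list, at 313 FPKM of a summed 436.5 ± 60.6 FPKM. Over the 8, the median level was 1.76, 1.01, 0.705 and 0.642 times the gene's own mean in replicates 1 to 4. Lcn2, which macrophages also make, had 91.3, 74.6, 94.7 and 58.7 FPKM (79.8 ± 16.6). Camp, a granule peptide, had 4.67, 1.87, 1.68 and 1.26 FPKM (2.37 ± 1.56). The defining Ly6g had no read, and Elane and Mpo, of immature granules, had 5 and 3 reads in all. The part of these markers in other levels was not tested.

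Stroma and endothelium genes had 7 of 20 expressed, 5 of the 7 highest in replicate 4 (24.5% of all expressed protein-coding genes were). Of the rest, 1 was highest in replicate 1 and 1 in replicate 2. The medians were 1.01, 0.879, 0.726 and 1.45 times the mean. Vwf had the highest level of the list, at 11.6 FPKM. Col1a1, Acta2, Col1a2 and Sparc were all among those highest in replicate 4, so they do not stand for the whole list. Col1a2 had 2.196, 2.11, 1.27 and 4.04 FPKM (2.404 ± 1.17) and Sparc, a matrix protein, had 3.304, 2.61, 1.95 and 5.39 FPKM (3.31 ± 1.49). Adipoq and Bglap, of fat and bone cells, had no read. Their part in other levels was not tested either.

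Interferon-stimulated genes stood higher in replicates 1 and 2 than in 3 and 4. All 20 were expressed; 16 were highest in replicate 2, where 18.5% of all expressed protein-coding genes were highest, and the other 4 in replicate 1, and each was lowest in replicate 3 (9 genes) or 4 (11 genes). Isg15, a ubiquitin-like protein, had 46.9, 55.1, 33.6 and 38.3 FPKM (43.5 ± 9.51). Rsad2 (viperin) had 23.5, 27.6, 16.03 and 19.2 FPKM (21.6 ± 5.05). Irf7, a factor that amplifies the response, had 12.8, 12.9, 8.72 and 8.798 FPKM (10.8 ± 2.37). For 19 of the 20 the lower of replicates 1 and 2 was above the higher of 3 and 4. Over all expressed protein-coding genes that share was 14.3%. The exception was Ifitm3, at 118, 96.7, 116 and 83.4 FPKM (103 ± 16.4). This split of the replicates was not planned and the 20 genes are not independent, so the counts are a description only. Over the list the medians were 1.09, 1.23, 0.834 and 0.835 times the mean, against 1.01, 0.987, 1.01 and 0.995 over the 9676 expressed protein-coding genes. Ifnb1, which encodes interferon beta, was under the threshold at 0.499 ± 0.181 FPKM. The sequences before the starts of Isg15 (chr4:156200819-156201018, minus strand) and Rsad2 (chr12:26456453-26456652, minus strand), from RefSeq on GRCm38.p6, are shown as examples of the 19 higher in both replicates 1 and 2 than in either of 3 and 4. Capitals mark the interferon-response-like motif, and in Rsad2 also TATAAA and the AP-1-like TGACTCA (4.46% of all windows), on either strand.
Isg15: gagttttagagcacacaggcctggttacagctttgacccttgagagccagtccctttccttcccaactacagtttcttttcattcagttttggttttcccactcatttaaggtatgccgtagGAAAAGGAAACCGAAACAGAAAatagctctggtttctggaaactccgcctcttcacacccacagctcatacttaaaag
Rsad2: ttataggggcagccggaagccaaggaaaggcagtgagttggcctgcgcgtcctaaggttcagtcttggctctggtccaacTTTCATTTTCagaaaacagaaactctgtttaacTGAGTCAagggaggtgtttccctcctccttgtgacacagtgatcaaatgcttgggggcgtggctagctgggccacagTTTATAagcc
Isg15 held that motif in 3 overlapping places between bases -78 and -57, and Rsad2 held it on the opposite strand at -120 to -111. The TATAAA letters marked in Rsad2 lay at -10 to -5, also on the opposite strand.

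**Figure D5:**
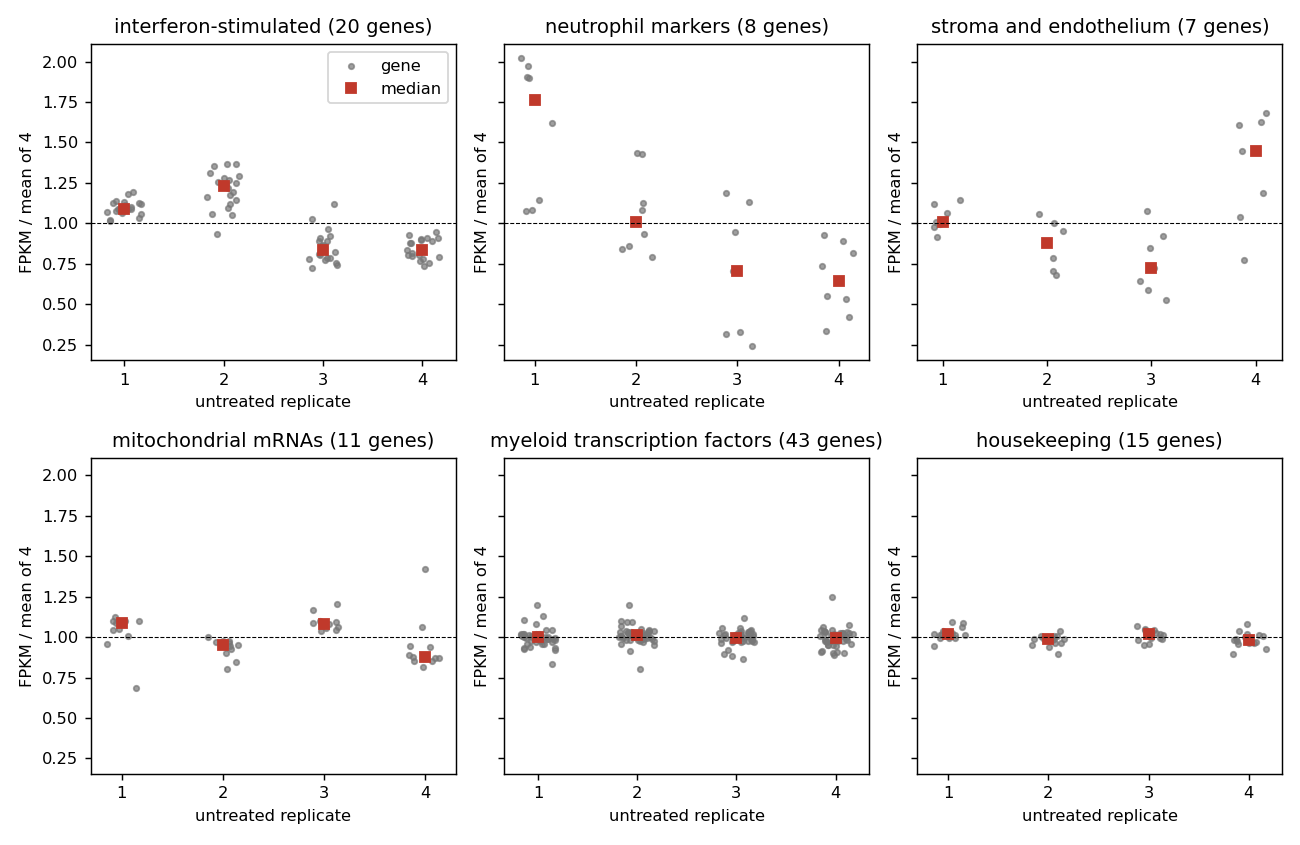
Level of each expressed gene in each untreated replicate divided by its mean over the 4, for 6 lists; grey points are genes and red squares the median. Interferon-stimulated genes sit above 1 in replicates 1 and 2 (medians 1.09 and 1.23) and below it in 3 and 4 (0.834 and 0.835), while housekeeping genes stay near 1.

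A small RNA stood apart in 1 library. Rn7s1, a signal recognition particle RNA, had 15.3, 13.98, 588 and 14.3 FPKM (158 ± 287), far higher in replicate 3, whereas its copy Rn7s2 had 62.4, 73.1, 74.3 and 70.8 FPKM (70.2 ± 5.35). CT010467.1, annotated as ribosomal RNA and named after its values were seen, had 11.4, 108, 6.32 and 6.04 FPKM (32.9 ± 50.1), far higher in replicate 2. Without replicate 3 the mean of Rn7s1 was 14.5 FPKM, and without replicate 2 that of CT010467.1 was 7.92 FPKM. The 167 genes annotated as miscellaneous RNA together held 0.272% ± 0.0252 of the reads.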

How the data were processed

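Total RNA of untreated mouse bone marrow macrophages was sequenced in 4 libraries made with a strand-marking kit, as the labels' protocols say. The deposited values are FPKM, computed by the authors per gene and library. Per the submitters' processing notes, the build was GRCm38.p6 and the tools were STAR 2.7.11a, DESeq2 1.40.2, featureCounts 2.0.6, FastQC 0.12.1 and cutadapt 4.5, listed without roles. Strand settings and the treatment of reads with several places are not given in the sources used here, so levels of overlapping genes and near copies are uncertain. FPKM times length fell on whole reads within 0.1 read for 98.7% to 99.7% of genes, which gave each library's total. The recovery was tested on simulated tables. Means, SDs and CVs were computed with Python 3.11.15 and pandas 2.3.3, with no test between groups, since there is 1; Dixon's limit was used only to list values that stand apart from the other 3 libraries. FPKM was not rescaled between libraries. "No read" means 0 reads in all 4 libraries, with the FPKM of 3 reads as the limit, for counting error only. Genes were named as the 40 highest protein-coding and 10 highest other genes, the 10 of highest and 10 of lowest CV at mean 5 FPKM or more, and members of 46 lists (860 genes, 492 expressed, 64 with no read). A further 59 symbols were not found in the table. The members and lists were chosen with earlier results of these data known. Promoter sequences are from RefSeq, GRCm38.p6, 1 window per gene matched by symbol. Some genes of the lists are not reported here by name.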

Additional observations from a re-analysis of the deposited data

Results flagged for a closer look

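A gene or list was looked at again where the gap between 1 library and the nearest other, divided by the range over the 4, was above Dixon's 95% critical value for 4 samples. Chance passes that limit in about 1 of 20 independent groups. Of 227 values tested, 19 passed it (8.37%), 7 with replicate 3 apart and 4 with each of the others. The values were levels of genes named in the text and sums of lists. Some genes had been named for their level or spread, so the chance rate does not apply to this set. Rn7s1 in replicate 3 had a ratio of 0.998, and CT010467.1 in replicate 2 a ratio of 0.947. Rn7s1 was among the 10 highest other genes only through replicate 3, and CT010467.1 was named after its values were seen. Their ratios therefore follow from how they were picked. The ratio was 0.903 for Il1b (replicate 2 low), 0.923 for Nos2 (replicate 4 low), 0.868 for Il12b (replicate 3 low, at 13.5 FPKM against 19.3 to 20.2 FPKM), 0.868 for Ccr4 (replicate 4 low, at 2.50 FPKM against 4.16 to 4.41 FPKM) and 0.845 for Kit (replicate 4 low). It was 0.845 for Nr1h2 (replicate 4 low) and 0.835 for Atf3 (replicate 1 low), at differences of a few percent. High libraries gave 0.933 for Gata2, 0.900 for Ctsk and 0.841 for Cfp in replicate 3, and 0.878 for Tcf7 and 0.835 for Marco in replicate 1. The summed level of the expressed colony-stimulating factor receptors gave 0.886, with 1636 FPKM in replicate 3 against 1601 to 1605 FPKM, and that of the expressed serine proteases 0.956, with 554 FPKM against 529 to 530.3 FPKM. Cd3e, Timd4 and Xist gave 1.0 because their few reads were all in 1 library.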

How the results depend on the processing

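No paired analysis was possible because 1 group is described and no result comes from a test between groups. Leaving out each library in turn gave 10715 to 10749 expressed genes, 9652 to 9684 expressed protein-coding genes and 491 to 493 expressed list members, and 38 to 40 of the 40 highest genes stayed among the 40 highest. The same step gave 1846 to 1975 protein-coding genes with no read, a share of reads in the 10 highest protein-coding genes of 4.94% to 5.02% and a median CV of 3.84% to 4.23%; the last range was added after seeing the data. Counting genes with fewer than 3 reads over the 4 libraries raised the protein-coding genes with no read from 1655 to 2858. The share of the 10 highest, 4.998% of counted reads, was 5.72% of protein-coding reads and 5.18% without mitochondrial genes and Gm26917, both by construction of a smaller total. Of 460 list counts under other settings, 443 stayed within 1.5 times. Of the 17 that did not, 8 were on the TPM scale, where the same threshold is a lower bar and 14466 genes were expressed. Other tissue macrophages rose from 6 to 12, T cells 2 to 6 and factors of other lineages 5 to 9. Eosinophils, mast cells and basophils rose from 3 to 5 and Hox genes from 1 to 2. Erythroid cells and megakaryocytes, unrelated tissues and colony-stimulating factors each rose from 2 to 4. At 0.5 FPKM other tissue macrophages had 10, factors of other lineages 8 and erythroid cells 4, and at 2 FPKM factors of other lineages had 3, T cells 1 and Hox genes 0. Without genes that overlap another expressed gene, myeloid factors fell from 43 to 27 and class II genes and mitochondrial mRNAs from 11 to 7, by construction. Other scalings apply 1 factor per library, and the median-of-ratios factors were only 0.9896 to 1.014. TPM and reduced totals were brought to the deposited mean total, so levels could hardly move under any scaling. Of 588 levels of genes named in the text recomputed under other scalings, 1 moved by more than its SD, that of Svil (8.52 FPKM with median-of-ratios scaling). Of 784 recomputed without 1 library, 9 moved by over 1.5 times: besides Rn7s1 and CT010467.1, Ctsg fell to 0.015 FPKM without replicate 4, Elane to 0.0403 FPKM and Siglech to 0.00467 FPKM without replicate 1, Lyve1 to 0.00533 FPKM without replicate 4, and Cd3e, Timd4 and Xist to 0. Depth limits the rarest genes: the last 7 of these had 5 reads or fewer over the 4 libraries. RefSeq windows matched 50.2% of genes and 77.8% of protein-coding genes, under 80%, so a comparison of promoter letters between expression classes is void and not given.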

Other observations

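Gene families taken by their symbols, chosen after values were seen, show which other functions the untreated cells carried. Of 83 ribosomal protein genes 80 were expressed, with 1.83% ± 0.0172 of counted reads. Expressed were 37 of 39 proteasome subunit genes and 16 of 23 genes of the lysosomal proton pump family (54.6% of all protein-coding genes were), the latter with 0.409% ± 0.0115 of reads. Rab GTPases, which direct vesicle traffic, had 48 of 68 genes expressed. Few genes of some other families reached 1 FPKM: 2 of 252 olfactory receptors were expressed and 160 had no read, none of 65 vomeronasal receptors and none of 29 keratins were expressed, and 7 of 82 potassium channel genes were. All these family counts cover only genes with a value above 0 in some library of the series, so the whole families may be larger. Collagens, with 7 of 43 expressed, held 0.0319% of reads in replicate 4 against 0.0189% to 0.0233% in the others.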
